A study of Mus musculus with 6 samples.

Results

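The 5 genes described here, Mlx, Mlxip, Mlxipl, Txnip and Arrdc4, make up the MLX glucose-sensing arm of the extended MYC network together with its best known target genes. They were chosen by symbol, 5 of the 24391 genes in the annotation used for counting, and all 5 held enough counts to be tested. MLX is a small basic helix-loop-helix leucine zipper protein that resembles MAX in its role as a shared partner. It binds DNA as a dimer with MLXIP (MondoA) or MLXIPL (ChREBP), factors that enter the nucleus and become active when phosphorylated glucose accumulates in the cell. TXNIP and ARRDC4 are alpha-arrestins, proteins that draw glucose transporters away from the cell surface, and their genes respond strongly to glucose through MLX dimers.

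The libraries, 3 MAX restored and 3 control, were made from RNA of mRPMaxKO, a line grown out of an RPMax-/- lung tumour of a mouse of mixed 129/SvJ and C57BL/6 background. RPMax is understood as the combined loss of Rb1, p53 and Max, a genotype that models small cell lung cancer. All libraries came from polyclonal cells of this 1 line, which carried a doxycycline-inducible lentiviral vector, had been selected with puromycin and stood below passage 20. The protocol, worded alike for all samples, gives 4 days of doxycycline, and it states neither what vector the control cells carried nor whether they received the drug, so these differences cannot be told apart from MAX itself. Whether replicates are separate cultures is not given, and p-values therefore reflect only the spread between these libraries, which may be technical.

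MAX restored libraries held 10253303 to 11925909 counts and control libraries 10046899 to 10425210. Max itself, the restored gene, averaged 1327 ± 18.7 CPM (counts scaled to library size) in MAX restored libraries and 63.5 ± 2.47 CPM in controls (SD, n = 3 each). Rb1 (290.2 ± 1.74 and 322 ± 18.9 CPM) and Trp53 (11.4 ± 1.15 and 12.5 ± 1.29 CPM) still held reads in MAX restored and control libraries. Gene totals do not show which exons these reads, or those of Max, came from. Of 9 neuroendocrine markers 8 were tested, and the summed level of the list was 8729 to 9038 CPM in MAX restored libraries and 8639 to 8878 CPM in controls, with Neurod1 at 0 in every library. Summed markers stood at 1.93 to 3.32 and 1.67 to 1.88 CPM for fibroblasts and at 2.59 to 3.42 and 1.49 to 2.78 CPM for immune cells, and Lum and Cd3e were at 0 throughout. Summed endothelial markers stood at 419 to 454 CPM in MAX restored libraries and 528 to 582 CPM in controls, nearly all of it Vwf, with Cdh5 at 0. Other lung epithelial markers summed to 35.1 to 41.0 CPM in MAX restored libraries and 36.8 to 38.8 CPM in controls, most of it the alveolar gene Sftpc. All 3 tested genes of this list of 6 were called: Sftpc was lower (26.0 and 31.6 CPM on average in MAX restored and control libraries), and the ciliated cell gene Foxj1 (8.50 and 3.72 CPM) and the alveolar gene Ager (2.64 and 1.34 CPM) were higher. The part of any marker list in the results was not tested. Control 1 stood apart, with 0.996% of its counts in the ribosomal RNA precursor Rn45s, against 0.109% to 0.187% in the other libraries.

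The 2 target genes carry different E-box arrangements before their starts, and the stretches are shown because their transcripts moved in opposite directions. Each is the 250 bases before the RefSeq gene start in build GRCm38.p6, on the strand of the gene, with Txnip on the plus strand at chr3:96557707-96557956 and Arrdc4 on the minus strand at chr7:68749239-68749488. Capitals mark the tandem element (a pair of CACGNG sites 5 bases apart), the E-box CACGTG and the CCAAT box CCAAT, searched on both strands, and no marked site overlaps another.
Txnip: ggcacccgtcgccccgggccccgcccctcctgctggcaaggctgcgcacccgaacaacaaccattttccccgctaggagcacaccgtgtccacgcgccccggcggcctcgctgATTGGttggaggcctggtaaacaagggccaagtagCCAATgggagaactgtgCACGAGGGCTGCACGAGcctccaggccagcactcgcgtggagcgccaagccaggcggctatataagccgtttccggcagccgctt
Arrdc4: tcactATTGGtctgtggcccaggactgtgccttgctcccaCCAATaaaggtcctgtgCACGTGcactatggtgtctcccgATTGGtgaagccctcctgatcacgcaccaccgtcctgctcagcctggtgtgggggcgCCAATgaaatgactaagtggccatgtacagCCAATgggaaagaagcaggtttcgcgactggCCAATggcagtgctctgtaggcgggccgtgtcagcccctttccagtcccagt
The tandem element, the form in which the carbohydrate response element of the TXNIP gene is known, lies in the Txnip stretch with its first base 85 bases before the start. It occurs in 15 of 32841 such stretches of RefSeq genes (0.0457%) and in none of the other 4 members. The pattern follows the known TXNIP element, so its match before Txnip is no independent result, and looser forms were not searched. The Arrdc4 stretch holds 1 CACGTG, beginning 193 bases before the start, which 6.02% of all stretches hold. Txnip has 2 CCAAT boxes and Arrdc4 6, and 0.840% of all stretches have at least 4. A match is a string of letters and not a measured binding site, and whether matches bear on the transcript changes of any member was not tested.

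Mlx and the upstream start of Mlxipl also hold 1 CACGTG each, shown here in 30 bases with the E-box in capitals because neither gene's transcript passed the threshold.
Mlx: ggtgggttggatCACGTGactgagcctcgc
Mlxipl, upstream start: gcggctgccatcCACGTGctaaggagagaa
The first begins 40 bases before the Mlx start on chromosome 11 and the second 98 bases before the upstream Mlxipl start on chromosome 5. The stretch before the downstream Mlxipl start holds neither a CACGTG nor a CCAAT box, and that before Mlxip holds 2 CCAAT boxes and no E-box. The Mlx stretch also holds 2 CCAAT boxes and the upstream Mlxipl stretch 1. At least 1 CCAAT box occurs in 33.9% of all stretches and at least 2 in 10.1%. In the annotation used for counting, Mlxipl spans 31492 bases. RefSeq places the gene's end 32878 bases from the downstream start and 49879 from the upstream one, so a first exon at the upstream start lies outside the counted model and the count does not tell transcripts of the 2 starts apart.

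With MAX restored, Txnip rose, Arrdc4 and Mlxip fell, and Mlx and Mlxipl did not pass the test. That is 1 higher and 2 lower of 5 at an adjusted p below 0.05, where 31.2% of the 12664 tested genes were higher and 32.3% lower, 63.5% in all. The share of members called, 3 of 5, is near that background. The 3 called genes were also the 3 whose groups did not overlap, which held for 67.1% of all tested genes. The median log2 fold change over the 5 members was -0.10, against -0.0036 over all tested genes, whose median size of change was 0.26.

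**Figure D1:**
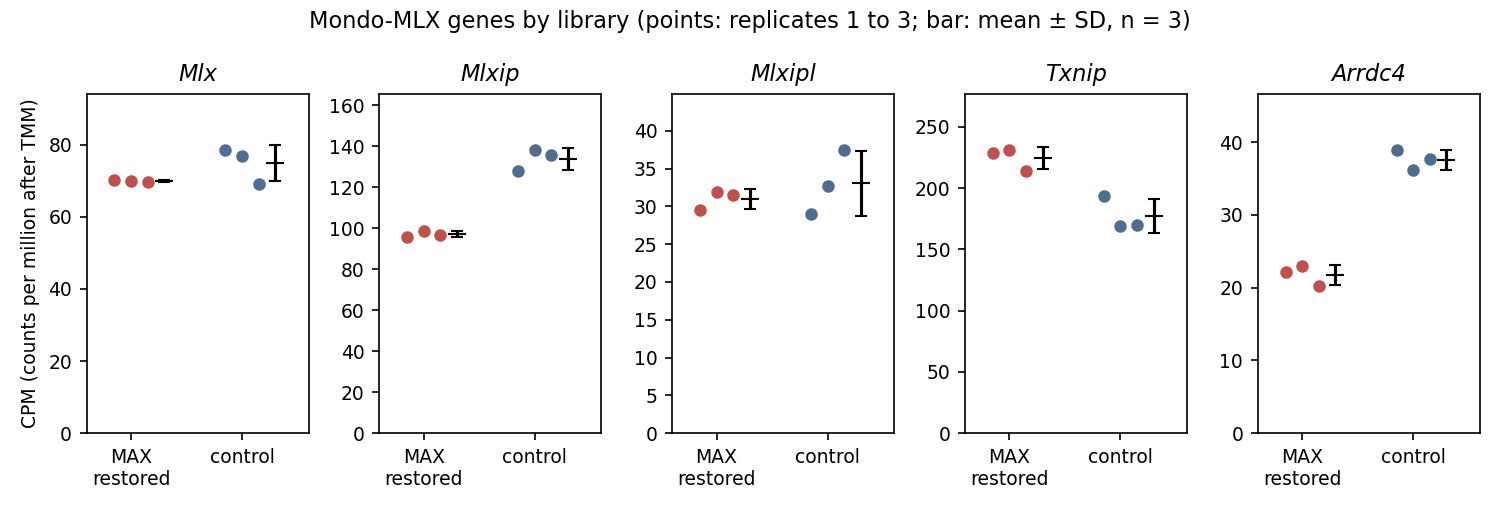
CPM after TMM scaling (vertical axes, from 0) of each member in every library, with MAX restored left and control right in each panel; points are replicates 1 to 3 and bars the mean ± SD. The groups are apart for Mlxip, Txnip and Arrdc4, and overlap for Mlx and Mlxipl.

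Mlx encodes the common dimer partner of the arm and covers chromosome 11 of mm9 from 100948604 to 100953521, with 8 exons on the plus strand. It measured 70.3, 69.8 and 69.7 CPM in MAX restored libraries 1, 2 and 3, against 78.5, 77.0 and 69.2 CPM in controls 1, 2 and 3. Control 3 lay just below the MAX restored libraries and the other controls above them, so the groups overlapped. The log2 fold change was -0.10 (SE 0.05, 95% interval -0.21 to 0.01; edgeR quasi-likelihood test, adjusted p = 0.108). Without control 3 the difference was -0.15 and the adjusted p 0.0213, so the call rests on that library. The raw counts were 837, 783 and 713 with MAX restored and 797, 803 and 699 in controls. Mlx shares 67 exon bases with Psmc3ip, a gene of meiotic recombination on the opposite strand. Psmc3ip fell (27.8 ± 1.78 CPM in MAX restored libraries and 45.5 ± 2.55 CPM in controls, SD, n = 3 each), and the counting took no account of strand.

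Mlxip encodes MondoA, the partner of MLX known from muscle and many dividing cells, and lies on chromosome 5 from 123844807 to 123907940 with 17 exons. It measured 95.9, 98.6 and 96.6 CPM in MAX restored libraries 1, 2 and 3, against 128, 138 and 136 CPM in controls 1, 2 and 3. Every MAX restored library lay below every control. The gene fell 1.38-fold (log2 -0.47, SE 0.05; edgeR quasi-likelihood test, adjusted p = 6.77e-08). Its counts, 989 to 1141 with MAX restored and 1298 to 1441 in controls, came from the longest exon set of the 5 genes, 8074 bases. A lower log2 fold change was found for 1544 of the tested genes.

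Mlxipl encodes ChREBP, the partner of MLX best known from liver and fat tissue, and lies on the same chromosome from 135582761 to 135614252, also with 17 exons. It measured 29.5, 31.8 and 31.6 CPM in MAX restored libraries 1, 2 and 3, against 29.0, 32.7 and 37.4 CPM in controls 1, 2 and 3. The MAX restored values fell inside the range of the controls, whose coefficient of variation was 12.9%, the widest of any member in either group. The log2 fold change was -0.09 (SE 0.08, 95% interval -0.27 to 0.08; edgeR quasi-likelihood test, adjusted p = 0.333). The controls decide this value: without control 1 it was -0.18 with an adjusted p of 0.0289, and without control 3 it was 0.0022.

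Txnip encodes the thioredoxin-interacting protein, which binds and inhibits thioredoxin and restrains glucose uptake. It measured 229, 231 and 214 CPM in MAX restored libraries 1, 2 and 3, against 193, 169 and 170 CPM in controls 1, 2 and 3. Control 1 was the highest control and still lay below all MAX restored libraries. The gene rose 1.27-fold, with means of 225 ± 9.11 CPM in MAX restored and 177 ± 13.8 CPM in control libraries (SD, n = 3 each; log2 0.34, SE 0.05; edgeR quasi-likelihood test, adjusted p = 1.13e-05). A higher log2 fold change was found for 2655 of the tested genes, so the rise is of middling size in this comparison. In RNA from whole cultures, a change in the number of cells that express a gene and a change in its RNA per cell cannot be told apart.

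Txnip occupies chromosome 3 of mm9 from 96361880 to 96365780 with 8 exons, and 606 of its 2801 exon bases are also exon bases of Gm15441, a transcript annotated on the opposite strand. Per the file headers reads were counted without strand and with no option for reads that overlap 2 genes, so reads in those bases were left out and the length-scaled level of Txnip is understated. Gm15441 itself held 6, 9 and 7 counts in MAX restored libraries 1, 2 and 3, against 9, 7 and 5 in controls 1, 2 and 3, beside 2192 to 2721 and 1713 to 1964 for Txnip.

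Arrdc4 encodes a relative of TXNIP that likewise lowers glucose uptake and recruits ubiquitin ligases of the NEDD4 family, and lies on the minus strand of chromosome 7 from 75881880 to 75894124 with 8 exons. It measured 22.2, 22.9 and 20.2 CPM in MAX restored libraries 1, 2 and 3, against 38.9, 36.1 and 37.6 CPM in controls 1, 2 and 3. The groups were far apart compared with the spread within either. The gene fell 1.72-fold (log2 -0.78, SE 0.07; edgeR quasi-likelihood test, adjusted p = 1.78e-08), on 207 to 264 counts with MAX restored and 377 to 395 in controls. Without control 1, the library that stood apart, the log2 fold changes were -0.76 for Arrdc4, 0.41 for Txnip and -0.50 for Mlxip, all still past the threshold. The change of Arrdc4 was the largest of the 5 in size, and 551 of the tested genes had a lower log2 fold change.

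**Figure D2:**
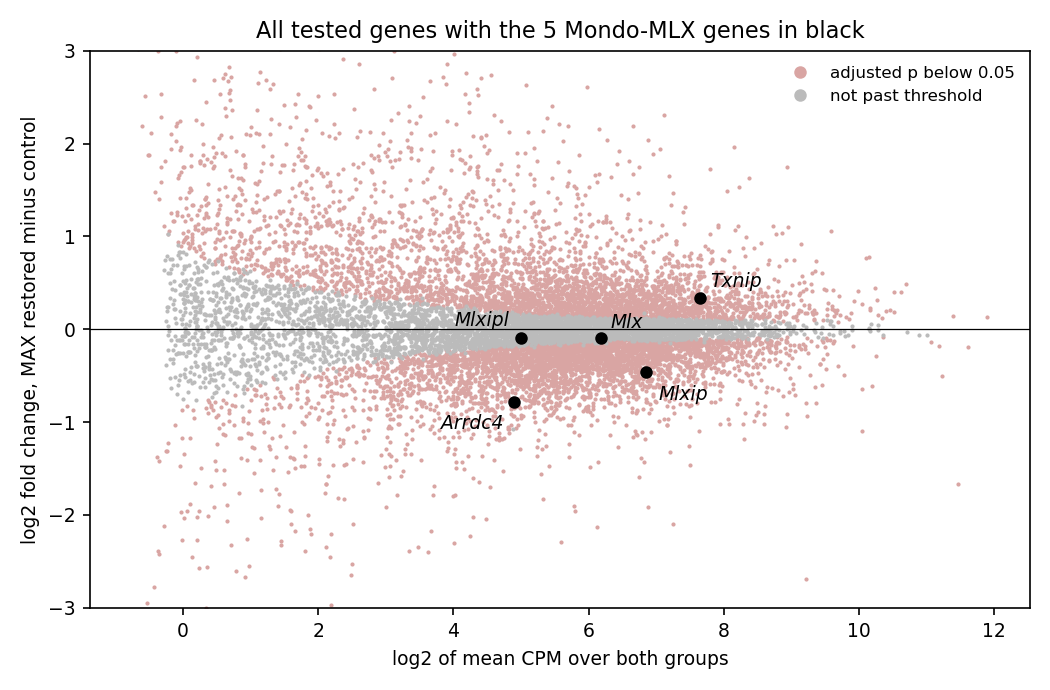
Log2 fold change of MAX restored minus control (vertical axis) against log2 mean CPM (horizontal axis) for the tested genes, pink where the adjusted p was below 0.05 and grey otherwise, with the 5 members in black; 92 genes lie beyond the vertical limits of 3. Txnip at 0.34 lies above zero and Mlxip at -0.47 and Arrdc4 at -0.78 below it, all among genes with larger changes of either sign.

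Scaled by exon length, the order of levels was Txnip, Mlx, Mlxip, Mlxipl and Arrdc4 with MAX restored. Txnip averaged 80.2 ± 3.25 CPM per kb of exon, Mlx 35.4 ± 0.174, Mlxip 12.02 ± 0.178, Mlxipl 8.49 ± 0.352 and Arrdc4 5.51 ± 0.352 in those libraries (SD, n = 3). No neighbours in this order overlapped. In controls the averages were 63.4 ± 4.94 for Txnip, 37.9 ± 2.52 for Mlx, 16.6 ± 0.672 for Mlxip, 9.50 ± 0.349 for Arrdc4 and 9.05 ± 1.17 CPM per kb for Mlxipl. Arrdc4 and Mlxipl were not separable there, since Arrdc4 ranged from 9.14 to 9.84 within the Mlxipl range of 7.94 to 10.3. Among the tested genes 92.3% had a lower length-scaled level than Txnip and 32.6% a lower one than Arrdc4, averaged over all libraries.

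**Figure D3:**
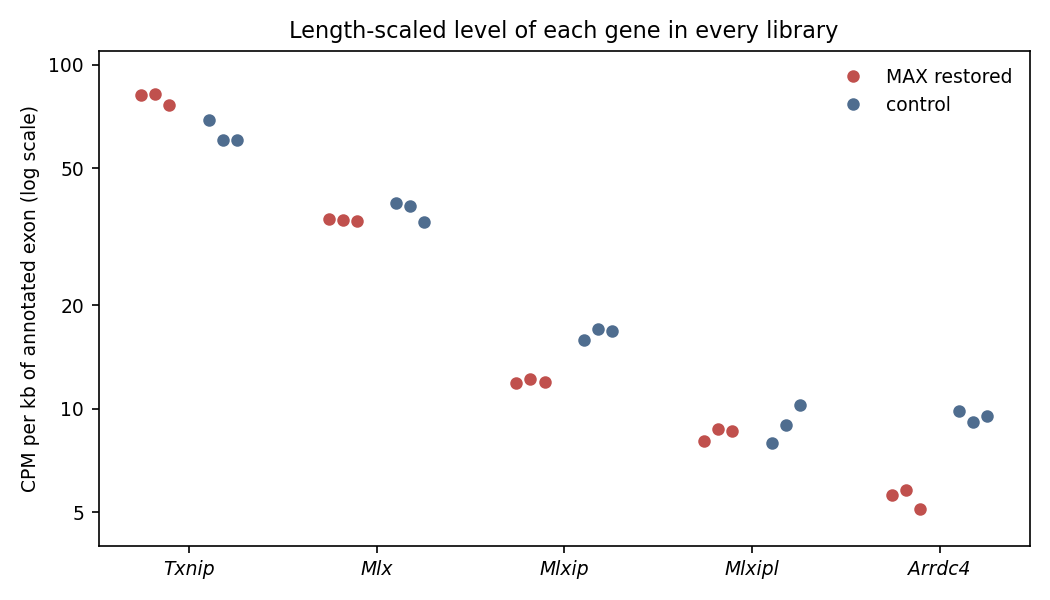
Length-scaled level in CPM per kb of annotated exon (vertical axis, log scale) of each member in every library, MAX restored in red and left of control in blue. Arrdc4 lies below Mlxipl in the MAX restored libraries (5.11 to 5.80 against 8.08 to 8.73) and within its range in the controls.

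Ratios within a library do not depend on how libraries are scaled to each other. The ratio of Txnip to Arrdc4 was 14.6, 14.2 and 14.95 in MAX restored libraries 1, 2 and 3, against 7.02, 6.61 and 6.37 in controls 1, 2 and 3, so the balance of the 2 arrestins moved 2.19-fold toward Txnip. The ratio of Mlxip to Mlxipl was 1.47, 1.40 and 1.38 in MAX restored libraries, against 1.995, 1.91 and 1.64 in controls, a log2 difference of -0.38. The groups did not overlap in either. The sum of Mlxip and Mlxipl relative to Mlx was 0.579 ± 0.0166 in MAX restored libraries and 0.680 ± 0.0879 in controls (SD, n = 3 each). Max stood at 18.7 ± 0.188 times Mlx with MAX restored and at 0.837 ± 0.0430 times Mlx in controls. Max was scaled by its annotated exon length, and gene totals do not show which exons its reads came from. The Max to Mlx values are therefore ratios of length-scaled reads and not of intact transcripts. In each of the 3 ratios tested the exact two-sided permutation test over libraries gave p = 0.1, which is the smallest that 3 against 3 allows and does not change with Benjamini-Hochberg adjustment over the 3.

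**Figure D4:**
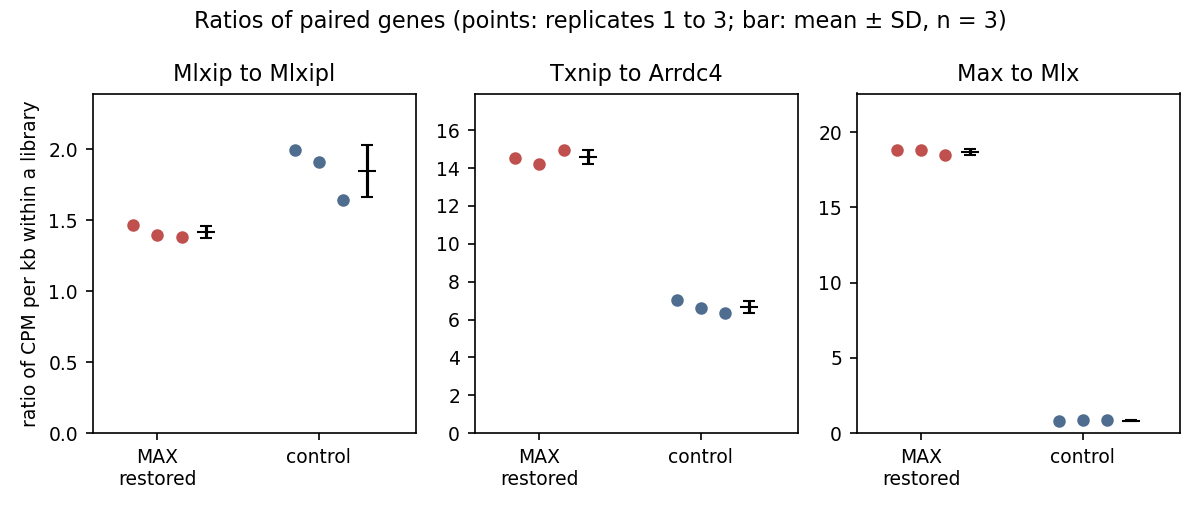
Ratio of CPM per kb between paired genes within a library (vertical axes, from 0), MAX restored left and control right; points are replicates 1 to 3 and bars the mean ± SD. The ratio of Txnip to Arrdc4 lies between 14.2 and 14.95 in MAX restored libraries and between 6.37 and 7.02 in controls.

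Genes around the members moved in both directions. The 50 nearest tested genes, 25 on each side, had a median log2 fold change of 0.0055 around Mlx, 0.0015 around Mlxip, -0.02 around Mlxipl, 0.0039 around Txnip and -0.01 around Arrdc4. Of these, 16 were higher and 16 lower around Mlx, 12 and 14 around Mlxip and 12 and 18 around Mlxipl. Txnip had 13 higher and 12 lower neighbours, and Arrdc4 11 and 14. Among all tested genes 31.2% were higher and 32.3% lower. Beside Txnip, Polr3gl, a subunit gene of RNA polymerase III, was lower (-0.60), and Terc (-0.47) did not pass. The flanking genes of Mlx, Coasy (-0.19) and Psmc3ip (-0.71), were lower. Next to Mlxip, Diablo (-0.26) was lower and Bcl7a (0.0074) did not pass. Beside Mlxipl the flanking genes Vps37d (0.93) and Tbl2 (-0.43) were called in opposite directions. Beside Arrdc4, Synm was higher (2.53) and Nr2f2 (-0.09) did not pass.

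Likeness to each member was measured as the root mean square difference of mean-centred log2 CPM over the 6 libraries, among 10344 genes. Nearest to Txnip were Rcbtb2 (0.0229), Nudt2 (0.0272) and Marcksl1 (0.0318 log2 units). Nearest to Arrdc4 were Bckdhb, which encodes a subunit of the branched-chain keto acid dehydrogenase (0.0338), the sestrin gene Sesn2 (0.0382) and 9130401M01Rik (0.0390). Mlxip was followed most closely by Usp36, a nucleolar deubiquitinase gene (0.0111), the ribosomal protein gene Rps14 (0.0115) and the kinase gene Ripk2 (0.0147). Ywhah, Trmt2b and Snrpb2 (0.0161 to 0.0206) stood nearest to Mlx, and Gna12, Nup214 and Mrrf (0.0277 to 0.0300) to Mlxipl.

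MLX also dimerises with the repressors MNT, MXD1 and MXD4, which MAX binds too. Mnt fell to 97.3 ± 2.10 CPM in MAX restored libraries, against 142 ± 9.25 CPM in controls (SD, n = 3 each; log2 -0.54, SE 0.05; edgeR quasi-likelihood test, adjusted p = 2.52e-08). Mxd1 rose slightly (37.5 ± 1.14 and 32.4 ± 1.24 CPM in MAX restored and control libraries, log2 0.21). Mxd4 gave 0.10 and did not pass. Mlxip and Mnt, at -0.47 and -0.54, were the partners of MLX that fell.

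Other genes known to respond to carbohydrate through ChREBP or MondoA, mostly from liver, moved in both directions. Of 21 listed 16 were tested, with 5 higher, 8 lower and a median log2 fold change of -0.06, where 31.2% of all tested genes were higher and 32.3% lower. Rgs16, a regulator of G protein signalling, fell most, to 19.8 ± 1.23 CPM in MAX restored libraries, against 58.6 ± 4.24 CPM in controls (SD, n = 3 each; log2 -1.56). Gpd1, the cytosolic glycerol phosphate dehydrogenase, fell 1.55-fold. The zinc finger gene Klf10 rose 1.46-fold and Acacb, an acetyl-CoA carboxylase of the mitochondrial surface, 1.37-fold. The other genes that rose, named after their values were seen, were the fructokinase gene Khk (log2 1.11, at 5.63 CPM with MAX restored and 2.60 CPM in controls), Bhlhe40 (0.46) and Thrsp (0.44). The 6 other genes that fell, likewise named afterwards, were Fgf21 (-0.52), the malic enzyme gene Me1 (-0.41), the desaturase gene Scd1 (-0.19, groups overlapping), the acetyl-CoA carboxylase gene Acaca (-0.17), the transketolase gene Tkt (-0.16) and Mid1ip1 (-0.14). Of the fatty acid synthesis genes, Fasn (0.02), Acly (0.02) and Elovl6 (0.08) did not pass. Pklr, G6pc and Slc2a2, defining targets in liver, were at or near 0 and not tested.

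Genes that bring glucose into the cell and set the level of its phosphorylated form were also split, with 4 higher and 4 lower of 9 tested from 12 listed (median -0.10), against 31.2% higher and 32.3% lower over all tested genes. The hexokinase gene Hk2 fell 3.77-fold, to 49.6 ± 2.44 CPM in MAX restored libraries, against 187 ± 17.2 CPM in controls (SD, n = 3 each). Hk1 rose 1.32-fold (339 ± 6.45 CPM in MAX restored libraries and 257 ± 7.98 CPM in controls). G6pc3, the broadly expressed glucose 6-phosphatase, fell 1.85-fold. Slc2a1, the gene of a broadly expressed glucose transporter, measured 110.3 ± 4.21 CPM in MAX restored libraries and 118 ± 7.63 CPM in controls and did not pass (log2 -0.10). It was picked after its values were seen.

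Among the other arrestins, 4 of 5 tested genes were higher and none lower (8 listed, median 0.31), where 31.2% of all tested genes were higher. The alpha-arrestin genes Arrdc1 (log2 0.31, SE 0.08), Arrdc2 (0.56, SE 0.12) and Arrdc3 (0.30, SE 0.06) moved in the direction of Txnip, and Arrdc4 in the opposite one. Arrdc1 measured 36.1 ± 4.18 CPM in MAX restored libraries and 29.1 ± 2.05 CPM in controls (SD, n = 3 each), and its groups overlapped. The beta-arrestin gene Arrb1, a regulator of G protein-coupled receptors, rose 1.78-fold, and Arrb2 (0.07) did not pass. Arrdc5 held no count in any library.

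Ubiquitin ligases of the NEDD4 family, which alpha-arrestins bring to their cargo, were higher in 5 and lower in 2 of 8 tested genes (9 listed, median 0.16), beside 31.2% and 32.3% of all tested genes. Smurf1 rose 1.63-fold and Nedd4l 1.57-fold, while Smurf2 fell 1.34-fold and Wwp1 1.24-fold. Itch, the ligase known to degrade TXNIP, measured 83.8 ± 4.25 CPM in MAX restored libraries and 78.4 ± 2.68 CPM in controls (SD, n = 3 each) and did not pass. It was picked after its values were seen.

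The thioredoxin system, to which TXNIP binds, had 5 lower and 2 higher of 10 genes (median -0.23), while 32.3% of all tested genes were lower and 31.2% higher. Txnrd1, the cytosolic thioredoxin reductase gene, fell 1.27-fold, to 268 ± 3.25 CPM in MAX restored libraries, against 341 ± 4.50 CPM in controls (SD, n = 3 each). The peroxiredoxin genes diverged: Prdx4, of the endoplasmic reticulum, fell 2.04-fold and mitochondrial Prdx3 1.57-fold, while Prdx2 rose 1.33-fold. Prdx1 rose 1.39-fold and Prdx5 did not pass, each picked after its values were seen. Txn1, the partner of TXNIP itself and picked after its values were seen, was lower at 163 ± 1.57 CPM in MAX restored libraries, against 193 ± 9.22 CPM in controls (log2 -0.24; edgeR quasi-likelihood test, adjusted p = 0.000135).

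Of 10 tested genes for AMPK, mTOR complex 1 and AKT, kinases that act on TXNIP or MondoA, 2 were higher and 5 lower (11 listed, median -0.08), with 31.2% higher and 32.3% lower among all tested genes. Without control 2 only 3 were lower. Mtor, whose product binds MondoA and restrains it, rose 1.43-fold, to 225 ± 7.34 CPM in MAX restored libraries, against 157 ± 9.47 CPM in controls (SD, n = 3 each). The AMPK subunit genes Prkab2 and Prkaa2 fell 1.38-fold and 1.18-fold, and Prkab1 rose 1.18-fold.

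**Figure D5:**
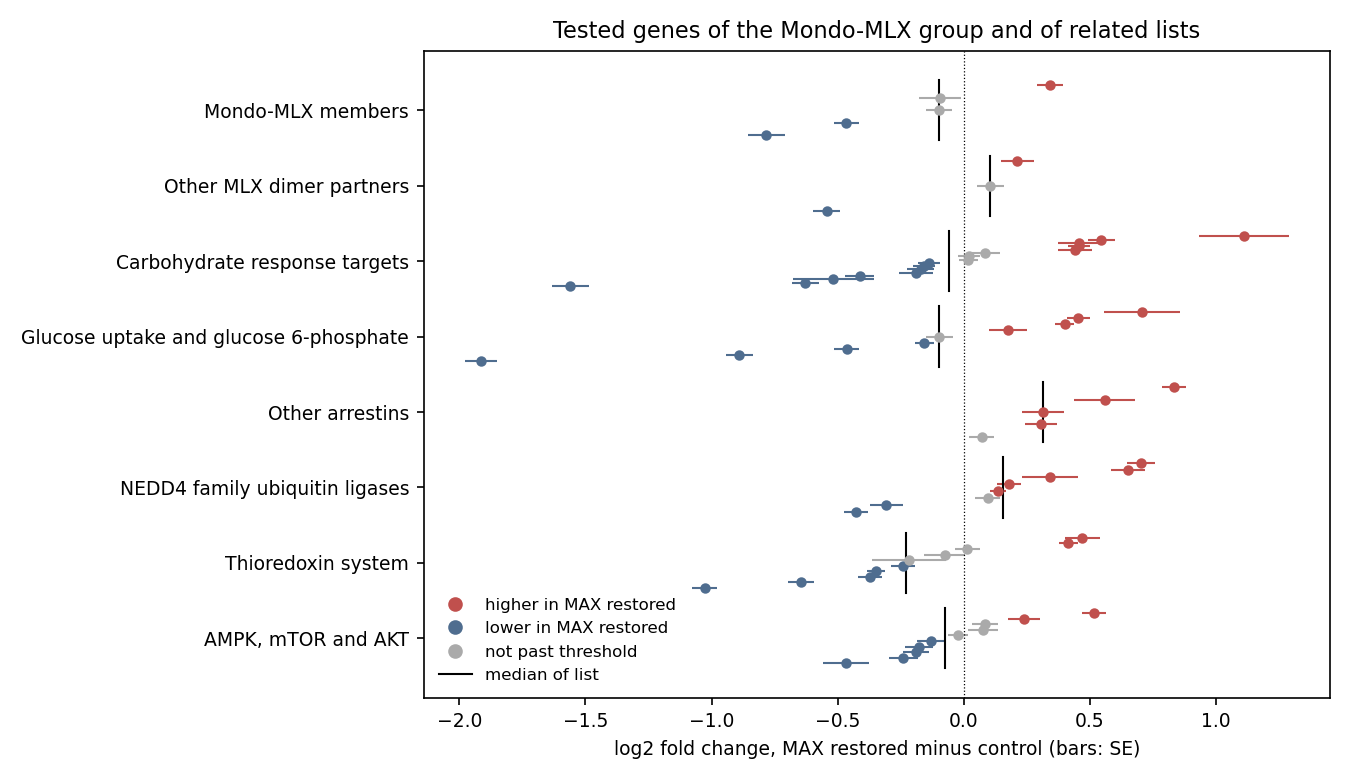
Log2 fold change of MAX restored minus control (horizontal axis, bars are SE) for each tested gene of the Mondo-MLX members and 7 related lists, red where higher, blue where lower and grey where not past the threshold; black lines are list medians. The list of other arrestins has no blue point, and Arrdc4 is the lowest of the members at -0.78.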

How the data were processed

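For each library the authors deposited unnormalized read counts by gene symbol. Per the submitters' processing notes reads were aligned with STAR 2.5.2a to mm9. Per the file headers featureCounts v1.6.0 counted them without strand over UCSC mm9 exons, leaving out multi-mapping reads and reads shared between genes. Libraries came from 500 ng of total RNA, per the labels' protocols.

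Genes were kept by filterByExpr (minimum count 10), which left 12664, scaled by TMM and tested with the quasi-likelihood test of edgeR 4.0.16 in R 4.3.3 (MAX restored against control, all 6 libraries). Adjusted p-values follow Benjamini-Hochberg across these genes and were called below 0.05. SE was taken as the size of the log2 fold change divided by the root of F. The script was tested on simulated data. Members and lists were chosen with earlier results of these data known. Named genes are the members, up to 4 genes of each list with the smallest p among those past the threshold, the targeted genes and the 3 genes most like each member in profile (mean log2 CPM at least 3, prior count 2); others are marked as picked afterwards, and 1 gene under the rule is not reported here. Of 6 immune markers 5 were found by symbol. All 5 members were found by symbol in the RefSeq table; neither Mlxipl start there gives the span that was counted. The genome builds of sequences and counts differ, and coordinates were not converted. DESeq2 1.42.0 and limma 3.58.1 served as alternatives, with other scalings, filters, thinning, the replicate number as a block and each library left out.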

Additional observations from a re-analysis of the deposited data

How the results depend on the processing

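Under the 16 alternatives tried, Txnip stayed higher and Mlxip and Arrdc4 lower, past the threshold in each, with log2 fold changes from 0.31 to 0.41, from -0.50 to -0.44 and from -0.82 to -0.73. Leaving out each library in turn moved Mlx between -0.15 and -0.067 and Mlxipl between -0.18 and 0.0022. Mlx passed without control 3 (adjusted p = 0.0213) and Mlxipl without control 1 (adjusted p = 0.0289; over all alternatives 0.0213 to 0.272 for Mlx and 0.0289 to 0.984 for Mlxipl, in edgeR, DESeq2 or limma), and the cause was not tested. The 28 other genes that the fixed rule named from the lists, Max and Rb1 among them, kept direction and call in all 448 values. Trp53 and the genes named by likeness were not followed under the alternatives. Upper quartile scaling, which moved the median of all genes to 0.02, called 2 MLX partners higher. Same-numbered libraries of the groups did not deviate together (correlations 0.0035, 0.0355 and -0.0241), so no effect shared by number was visible. Whether they shared a day or preparation is not given, and these correlations cannot show it. With the replicate block 3941 genes were higher and 4093 lower, against 3948 and 4092 without it, and Txnip gave 0.34. With 207 to 395 counts per library, Arrdc4 is the least precisely counted of the called members.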
